A study of Schizosaccharomyces pombe with 20 samples.

Results

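The genes named cwf or prp followed only by a number encode splicing factors of the fission yeast Schizosaccharomyces pombe, and 41 of the 5007 genes measured carry such a name (22 cwf and 19 prp genes). Membership was set by name, but the set was chosen with earlier results of these data known. All 41 were matched by identifier to a gene of the reference annotation. RNA was sequenced from wild-type cells (strain PB1623) and from cells with the leo1 gene deleted (leo1Δ, PB2423), both of the mating type mat1-M smt-0. The Leo1 protein belongs to the Paf1 complex, which accompanies RNA polymerase II along genes. Cells grown at 30C in PMG, a minimal glutamate medium, were washed and resuspended in PMG lacking nitrogen, a shift after which fission yeast arrests and enters quiescence (G0). They were taken at 0 (T0), 8 (T8), 24 (T24) and 48 (T48) h and at 2 weeks (T2w), with 2 libraries for each of 10 groups, 20 in all. Each genotype was a single strain, and the duplicates are described in the study as independent biological ones.

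Splicing removes introns from pre-mRNA in a series of steps carried out by the spliceosome, a machine of small nuclear RNAs (snRNAs) and proteins that assembles anew on each intron. U2 components recognise the branch site, the tri-snRNP of U4, U6 and U5 joins, the Prp19 complex enters as U4 leaves, and RNA helicases then drive both reactions, the release of the mRNA and the disassembly of the machine. Many prp genes were found through mutants defective in pre-mRNA processing, and the cwf genes (complexed with cdc5) through the proteins that copurify with Cdc5, a core component of the active spliceosome. Introns are common in fission yeast genes, unlike those of budding yeast.

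The values analysed were the deposited contrasts of leo1Δ against wild type, 1 for each time. Each is a log2 fold change, where 1 means a doubling of the normalised read count in leo1Δ, with a false discovery rate (FDR) from edgeR's likelihood ratio test adjusted over the whole table. A gene was called higher or lower where its FDR lay under 0.05. Values of single libraries were not analysed here, so no level per library, no spread between duplicates and no sequencing depth stands beside a fold change. In their place, an approximate standard error (SE) was taken from each fold change and its likelihood ratio, and an approximate 95% interval from that. The median SE over the 41 genes at T48 was 0.27. In leo1Δ the leo1 transcript itself was called lower at each of the 5 times, with 19.2% to 29.5% of the wild-type signal left. The source of that remainder was not determined. The M-cell pheromone genes mfm1, mfm2 and mfm3 had mean expression, as log2 CPM (reads scaled to the library total), of 11.13, 7.99 and 7.94. For map2, which encodes the pheromone of the opposite mating type, it was 3.12. Of the genes listed with map2 as markers, map1 had 4.92 and mam2 8.15. The mam2 gene encodes the receptor for that pheromone, which is expressed in M cells.

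At T48 the splicing factor genes were shifted towards higher transcript levels in leo1Δ, and 7 of the 41 were called higher and 0 lower. These were cwf11, prp17, prp2, prp31, cwf22, prp1 and prp22, with log2 fold changes between 0.58 and 0.79, or 1.49-fold to 1.73-fold. In the whole table, 5.57% of genes were called higher and 8.21% lower at T48, against 17.1% and 0% of the splicing factor genes. The median log2 fold change of the 41 genes was 0.44, where that of all genes was −0.07, and 37 of 41 (90.2%) lay above 0, where 45.9% of all genes did. These 41 values share the same 2 leo1Δ and 2 wild-type libraries, so they are not independent observations. The 4 genes below 0 were cwf10 (−0.27), prp5 (−0.13), cwf18 (−0.05) and cwf26 (−0.05), and each of their intervals included 0. At an unadjusted p under 0.05 there were 16 genes (39.0%), all with higher values, where 31.1% of all genes passed that level, 13.4% higher and 17.7% lower. The deposited p-values take the likelihood ratio as chi-square. An alternative put the same ratio through an F tail of 1 and 10 degrees of freedom, from 20 libraries in 10 groups. This treats the spread of each gene as estimated from its own duplicates, with nothing pooled across genes. Under it, 0 of the 41 genes were called at T48 (5 higher and 55 lower among all genes). That choice changes no fold change, so the median and the number above 0 are the same under it.

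At the other times few of these genes were called. At T0, 0 of 41 were called, beside 0.16% of all genes higher and 0.32% lower. At T8 the count was again 0, beside 0.0999% higher and 1.34% lower. At T24, 1 gene was called higher and 1 lower, beside 1.28% and 3.77% of all genes, and with the F tail 0 were called. At T2w the count was 0, beside 1.2% higher and 2.3% lower. By unadjusted p under 0.05 the 41 genes gave 1 gene at T0 (cwf11), 1 at T8 (prp19), 9 at T24 (6 higher and 3 lower) and 6 at T2w (5 higher and 1 lower). These are 2.44%, 2.44%, 22.0% and 14.6% of the 41 genes, where 8.57%, 9.53%, 20.5% and 15.7% of all genes passed, so the shares lay below the background at T0 and T8 and near it at T24 and T2w. Their medians were 0.01, 0.11 and 0.01 at T0, T8 and T24 and 0.17 at T2w, where those of all genes were −0.01, −0.01, −0.03 and 0.05. Above 0 lay 21, 29, 21 and 30 of the 41 genes at these times (49.3%, 49.2%, 47.1% and 55.0% of all genes). The T2w median was 0.08, with 24 genes above 0, when centred on GC content. In all, 9 genes were called, each at a single time, and 32 were called at none.

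**Figure D1:**
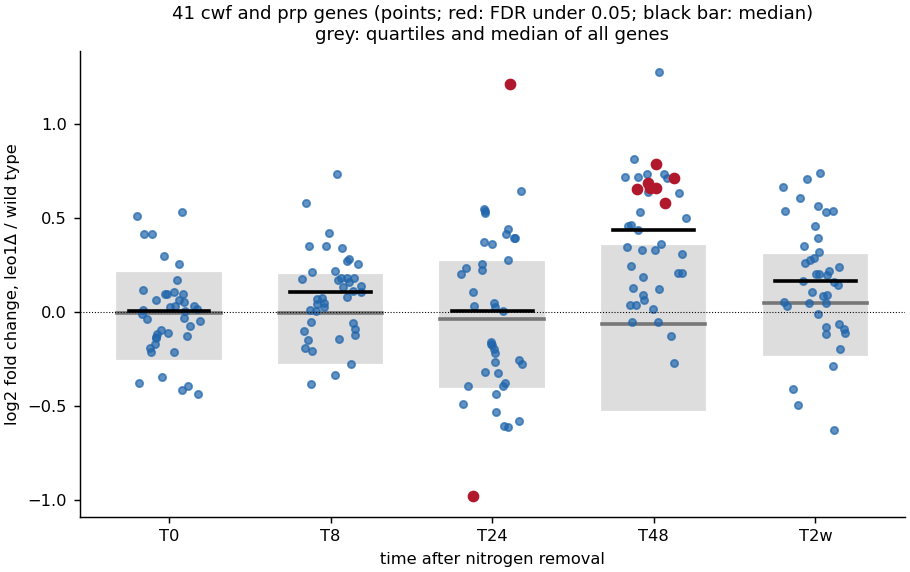
Log2 fold change (leo1Δ over wild type, vertical axis) of the 41 cwf and prp genes at each time after nitrogen removal (horizontal axis). Each point is a gene, red where its FDR is under 0.05, the black bar is their median, and the grey box and bar are the quartiles and median of all 5007 genes. At T48 the median of the 41 genes is 0.44 and that of all genes −0.07, and 37 of the 41 points lie above 0.

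The shift at T48 was also set against the other times directly. Relative to T0, the log2 fold change at T48 was higher in 35 of 41 genes (46.5% of all genes), with a median difference of 0.39 (−0.05 for all genes). Relative to T24 it was higher in 32 of 41 (44.2% of all genes), with a median difference of 0.51, and relative to T2w in 27 of 41 (47.1% of all genes), with a median difference of 0.24. No single gene of the 41 passed the approximate z test of its own difference after Benjamini-Hochberg adjustment over all genes, in any of the 6 pairs of times, of which the pair of T48 and T24 was added after the values were seen. The smallest adjusted p was 0.12, for cwf29 between T48 and T2w. Unadjusted, 6 of the 41 genes differed between T48 and T0 at p under 0.05 by that test (cwf3, prp1, prp17, prp2, cwf22 and prp22). All had the T48 value higher, and 12.3% of all genes differed at that level in either direction. Between T48 and T2w 4 of the 41 did (20.5% of all genes), and between T48 and T24 8 did (7.73%), again with T48 higher. T8, T24 and T2w against T0 gave 1 gene each (3.71%, 6.55% and 13.5% of all genes). After adjustment the whole table gave 68 genes between T48 and T0, 1.36% of those tested. It gave 108 (2.16%) between T48 and T2w and 0 between T48 and T24.

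**Figure D2:**
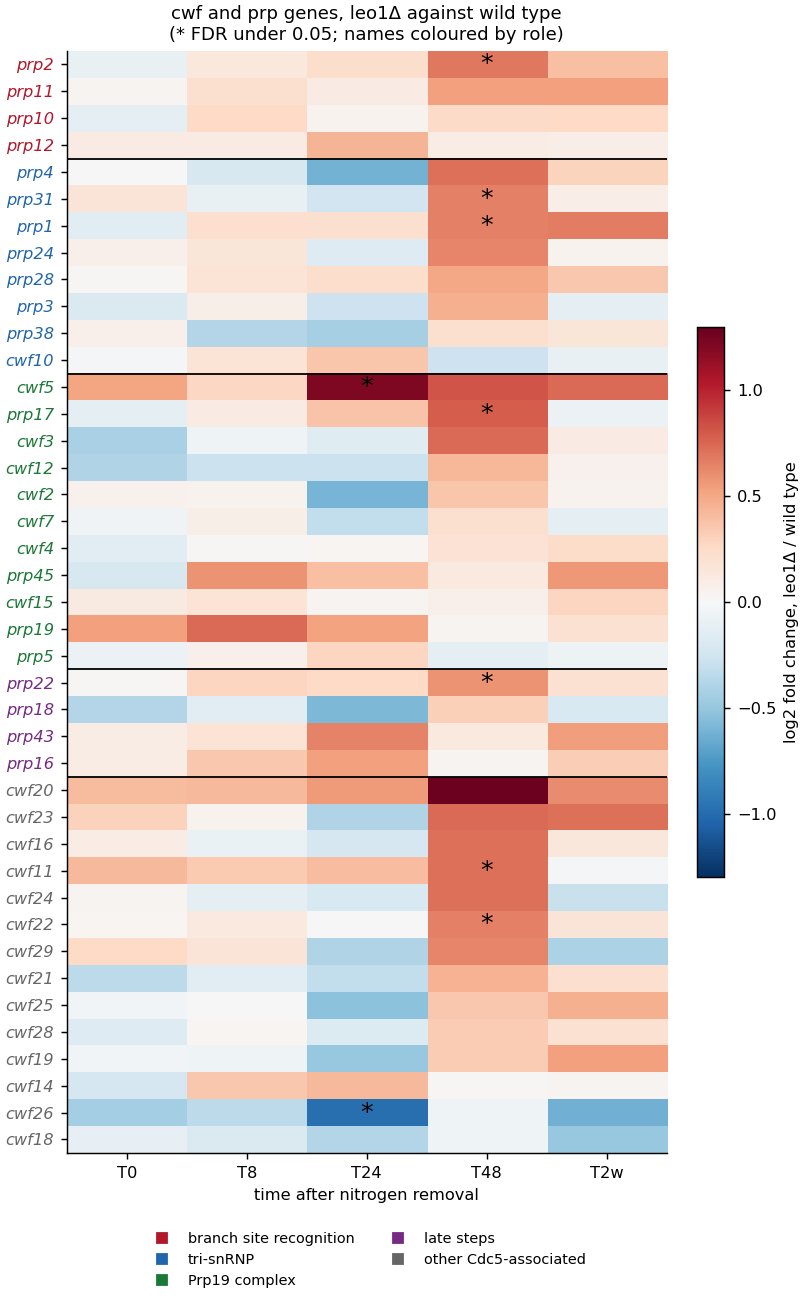
Heat map of the log2 fold change (leo1Δ over wild type) of each cwf and prp gene (rows, grouped by role and ordered by T48 within a role) at each time (columns), with an asterisk where the FDR is under 0.05. In the T48 column, 7 genes carry the mark and 37 of 41 are above 0, while the T24 column holds values of both signs from −0.98 for cwf26 to 1.21 for cwf5.

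Genes acting at the branch site come first in the order of splicing. prp2 (SPBC146.07, chromosome II) encodes the large U2AF subunit, which binds the polypyrimidine tract ahead of the 3′ splice site. Its log2 fold changes were −0.09, 0.14 and 0.22 at T0, T8 and T24, 0.69 at T48 (SE 0.23, interval 0.23 to 1.15, FDR 0.032) and 0.39 at T2w. The T48 value was the highest of its course. prp10, which encodes the SF3B1 subunit of the U2 snRNP, had the highest mean expression of the 41 genes (log2 CPM 8.47, and 100.1 CPM per kilobase of gene length). Its values stayed between −0.11 and 0.26, a range of 0.38 over the 5 times, and at T48 its interval ran from −0.24 to 0.73. prp11, a helicase gene related to PRP5 of budding yeast, had 0.53 at T48 (FDR 0.098) and 0.54 at T2w. prp12, which encodes another SF3b subunit, had 0.44 at T24 and 0.09 at T48. At T48 all 4 genes of this step were above 0, with a median of 0.39, and 1 was called. The T48 counts by role, here and below, stand beside 45.9% of all genes above 0 and 5.57% called higher.

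The tri-snRNP genes had a median of 0.57 over 8 genes at T48, with 7 above 0 and 2 called. This was close to the 0.55 of the cwf genes outside the named groups. prp1 (SPBC6B1.07, chromosome II) encodes a subunit that bridges U5 and U4/U6. Its log2 fold changes were −0.13, 0.22, 0.20, 0.66 and 0.67 from T0 to T2w. It was called at T48 (SE 0.22, FDR 0.028) and missed the threshold at T2w (SE 0.22, FDR 0.055), with nearly equal values at 48 h and 2 weeks. prp31 (SPBC119.13c, chromosome II), which encodes a protein of the U4/U6 snRNP, had 0.17, −0.10 and −0.25 at T0, T8 and T24, 0.66 at T48 (SE 0.23, FDR 0.041) and 0.08 at T2w. The T48 value was thus the highest of the 5. prp4 encodes a protein kinase that phosphorylates Prp1 in fission yeast, and its values covered the widest range of the 41 genes, 1.33. They were 0.01, −0.21 and −0.61 at T0, T8 and T24, 0.72 at T48 (SE 0.35, FDR 0.14) and 0.29 at T2w, with no call. prp28, the helicase gene for the exchange of U1 for U6 at the 5′ splice site, had 0.50 at T48 (SE 0.19, FDR 0.062).

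The remaining tri-snRNP genes were uncalled at all times. prp24, whose product helps U4 and U6 snRNA pair, had 0.63 at T48 (FDR 0.14), prp3 0.47, and prp38, which has a part in activating the spliceosome, 0.21. prp38 had the lowest value of the 41 genes at T8, −0.38, and was among the 3 lowest in mean expression (log2 CPM 3.82). cwf10, which encodes the GTPase of the U5 snRNP, had the lowest value of the 41 genes at T48. Its values were −0.01, 0.18, 0.36, −0.27 and −0.09, and its T48 interval ran from −0.78 to 0.24.

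In the Prp19 complex and its associated proteins, 10 of 11 genes were above 0 at T48, with a median of 0.21 and 1 call. cwf5 (SPCC550.02c, chromosome III) encodes an RNA-binding subunit and was the gene called higher at T24. Its log2 fold changes were 0.51 and 0.27 at T0 and T8, 1.21 at T24 (SE 0.35, FDR 0.019), 0.82 at T48 (SE 0.35, FDR 0.089) and 0.74 at T2w (SE 0.34, FDR 0.26). It was thus above 0 at each time and among the 3 highest of the 41 genes at T0, T24, T48 and T2w. prp17 (SPBC6B1.10, chromosome II) encodes a WD repeat protein needed for the second step in budding yeast. Its values were −0.13, 0.11, 0.37, 0.79 and −0.08, and the T48 value was called (SE 0.26, FDR 0.027). In the reference its whole span is shared with a coding gene on the opposite strand, as given below. cwf3, the counterpart of budding yeast SYF1, had −0.42 at T0 and 0.73 at T48 (SE 0.30, FDR 0.079), a difference of 1.15 (SE 0.43, adjusted p = 0.18 by the approximate z test). cwf12, related to ISY1 of budding yeast, was among the 3 lowest at T0 (−0.39) and T8 (−0.28) and had 0.44 at T48.

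The other genes of the complex had T48 values between −0.13 and 0.36, none of them called. prp19, which encodes the ubiquitin ligase that gives the complex its name, was the highest of the 41 genes at T0 (0.53, SE 0.30, FDR 0.64) and T8 (0.73, SE 0.31, FDR 0.32). It had 0.53 at T24, 0.04 at T48 and 0.20 at T2w. Its lowest value thus fell at T48, where 37 of the 41 genes lay above 0. prp45, which encodes the SNW/SKIP protein, had 0.58 at T8 and 0.13 at T48. cwf15 varied least of all 41 genes, with a range of 0.24 over the times and 0.07 at T48. prp5, a WD repeat gene, had −0.13 at T48 with an interval from −0.58 to 0.32. cwf2, an RNA-binding subunit gene, was among the 3 lowest at T24 (−0.60, FDR 0.16) and had 0.36 at T48. cwf4 (0.19) and cwf7 (0.21) completed the group at T48.

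Of the 4 genes for late steps, all were above 0 at T48, with a median of 0.22. prp22 (SPAC10F6.02c, chromosome I) encodes the helicase that releases the spliced mRNA, and it had 51.0 CPM per kilobase on average. Its log2 fold changes were 0.01, 0.28, 0.26, 0.58 and 0.20, with a call at T48 (SE 0.20, FDR 0.039). This was the smallest change among the genes called, 1.49-fold. The helicase genes prp16, which acts between the first and second reaction, and prp43, which acts in disassembly, had their highest values at T24 instead. prp16 had 0.54 at T24 and 0.04 at T48, and prp43 had 0.65 at T24 (SE 0.26, FDR 0.12), 0.12 at T48 and 0.54 at T2w. prp18, a second-step factor gene, had −0.58 at T24 and 0.31 at T48.

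**Figure D3:**
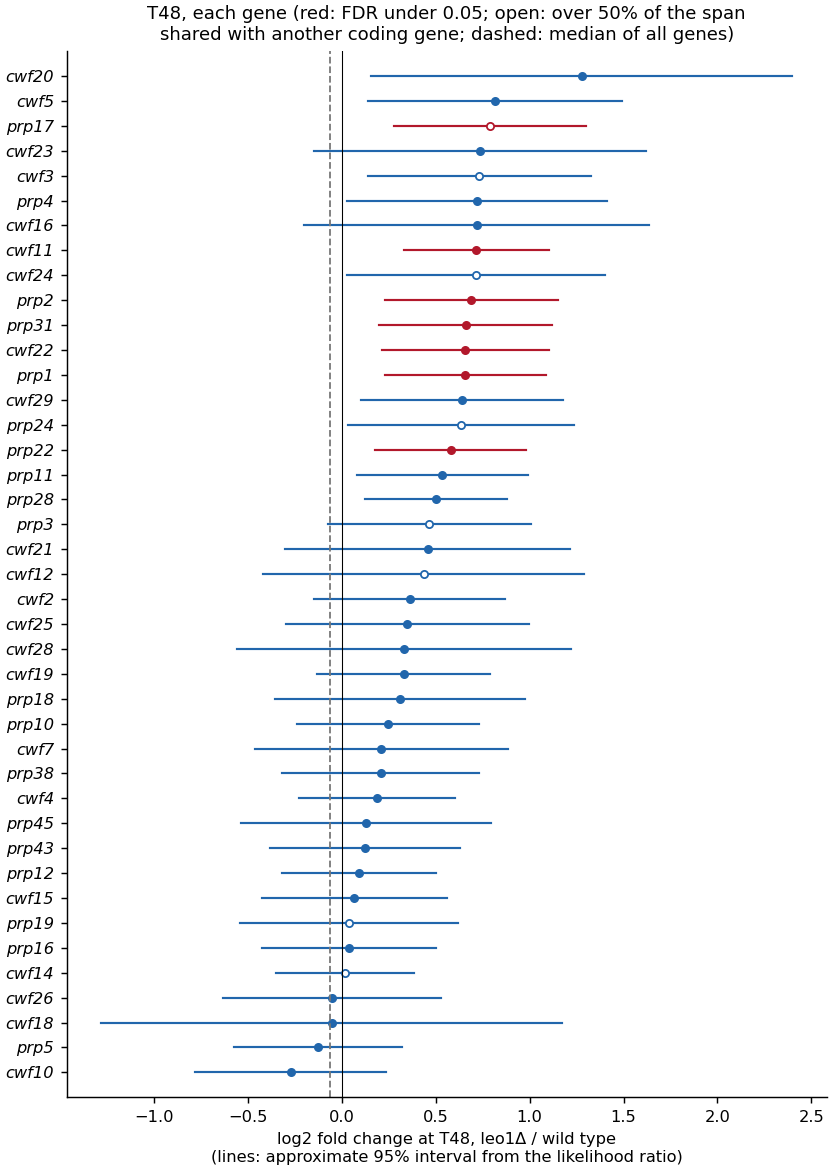
Log2 fold change at T48 (horizontal axis) of each of the 41 genes (vertical axis), with lines for the approximate 95% interval, red for an FDR under 0.05, open points for genes sharing over 50% of their span with another coding gene, and a dashed line at the median of all genes, −0.07. The called genes lie between 0.58 and 0.79, and cwf20, with the highest value of 1.28, has a wider interval (0.16 to 2.40) and was not called.

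The remaining 14 genes are cwf genes outside these groups, and at T48 they had a median of 0.55, with 12 above 0 and 2 called. cwf11 (SPBC646.02, chromosome II), related to the human intron-binding protein Aquarius, had the smallest FDR of all 41 genes. Its values were 0.42, 0.34 and 0.40 at T0, T8 and T24, 0.72 at T48 (SE 0.20, interval 0.33 to 1.10, FDR 0.0059) and −0.01 at T2w. It was above 0 at the first 4 times and at 0 after 2 weeks, a difference between T48 and T2w of 0.73 (SE 0.28, adjusted p = 0.13 by the approximate z test). cwf22 (SPBC13E7.01, chromosome II) encodes a splicing factor whose human counterpart helps to load the exon junction complex. Its values were 0.03, 0.13, 0.01, 0.66 and 0.17, called at T48 (SE 0.23, FDR 0.034), which was again the highest of its values.

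cwf20 had the highest T48 value, 1.28 (2.42-fold), yet its SE of 0.57 left it uncalled (FDR 0.11). It was among the 3 lowest in mean expression, with a log2 CPM of 4.12. Its values at the other times were 0.42, 0.42, 0.55 and 0.61, so it was above 0 throughout. cwf18, the gene with the lowest mean expression of the 41 (log2 CPM 3.81), had an SE of 0.63 and values from −0.49 to −0.05. With an SE of this size, a change as large as those called could not have been detected. cwf23, which encodes a DnaJ-domain protein, had −0.39 at T24, 0.74 at T48 (SE 0.45) and 0.71 at T2w. cwf24, a zinc finger protein gene, had 0.71 at T48 (FDR 0.14), and cwf16, another splicing factor gene, 0.72 (FDR 0.28).

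The other genes of this group were uncalled at all times. cwf19 had −0.49 at T24, 0.33 at T48 and 0.53 at T2w, so its sign changed between 24 and 48 h. cwf25, a factor for the first reaction in budding yeast, had −0.53, 0.35 and 0.46 at the same times, in the same order. cwf21 had −0.32 at T24 and 0.46 at T48, and cwf28 −0.18 and 0.33. cwf14, the counterpart of BUD31 of budding yeast, went the other way, with 0.42 at T24 and 0.02 at T48, and it had −0.21 at T0. Its difference between T24 and T0 was 0.63 (SE 0.27, adjusted p = 0.54 by the approximate z test).

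A pair of these genes encodes proteins of the RES complex, which helps to retain unspliced pre-mRNA in the nucleus and aids splicing in budding yeast. cwf26 (SPCC1620.10, chromosome III), the counterpart of budding yeast BUD13, was the gene called lower at T24. Its log2 fold changes were −0.44 and −0.34 at T0 and T8, −0.98 at T24 (SE 0.30, interval −1.57 to −0.39, FDR 0.032), −0.05 at T48 and −0.63 at T2w (FDR 0.25). It lay below 0 at each time and was the lowest of the 41 genes at T0, T24 and T2w. cwf29, the counterpart of IST3, had 0.26, 0.17 and −0.39 at T0, T8 and T24, 0.64 at T48 (SE 0.27, FDR 0.094) and −0.41 at T2w. Both therefore had higher values at T48 than at T24 or T2w, with differences between T48 and T24 of 0.92 for cwf26 and 1.03 for cwf29 (adjusted p = 0.61 and 0.55 by the approximate z test).

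Among the 19 prp genes, 5 (26.3%) were called higher at T48, and among the 22 cwf genes 2 (9.09%), against 5.57% of all genes. Their medians were 0.47 and 0.40, with 18 and 19 genes above 0 (45.9% of all genes). At T24 the medians lay apart, at 0.22 for the prp genes and −0.21 for the cwf genes. Above 0 lay 13 of 19 and 8 of 22, where 47.1% of all genes did. This difference between prp and cwf genes was not tested. Gene length divided the T24 values in a similar way. The 21 genes of at least the median length of 2082 bases had a median log2 fold change of 0.20 at T24, with 15 above 0. The 20 shorter ones had −0.30, with 6 above 0. Among all genes the split at the same length gave medians of 0.08 and −0.11 at T24, in the same order and closer together. Of all genes, 57.3% of the longer and 40.2% of the shorter ones lay above 0 at T24. Across the 41 genes, which share their libraries, Spearman's rho of the T24 value with length was 0.41, with GC content 0.48 and with mean log2 CPM 0.51 (0.23, 0.00 and 0.24 across all genes). At T8 the 41 genes gave 0.36, 0.54 and 0.47 for the same measures, and at T2w rho with GC content was 0.40. At T48 rho with length was −0.01. The part of length, GC content and expression level in these values was not tested.

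**Figure D4:**
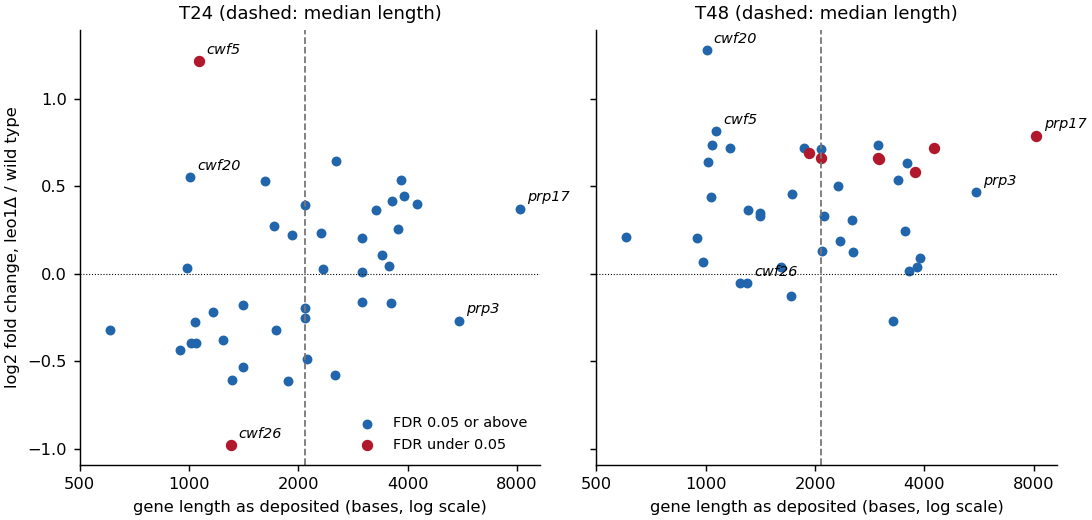
Log2 fold change (leo1Δ over wild type) of the 41 genes at T24 (left) and T48 (right) against gene length in bases on a log scale, with red points for an FDR under 0.05 and a dashed line at the median length of 2082 bases. At T24, 15 of the 21 longer genes but 6 of the 20 shorter ones lie above 0, and at T48 20 of 21 and 17 of 20 do. Of all genes split at the same length, 57.3% and 40.2% lie above 0 at T24, and 49.1% and 43.7% at T48.

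At T48 the fold changes of all genes were lower at higher GC content (Spearman's rho −0.36 over 4978 genes, −0.28 over the 41). The splicing factor genes were higher in median than all genes of like GC content in each of 5 GC bins of equal size. In the bin of highest GC content, the median over all genes was −0.53 and 17.5% lay above 0. The 10 splicing factor genes of that bin, prp22, prp28, prp16, prp10, prp11, prp5, prp45, cwf2, cwf4 and cwf5, had a median of 0.30, and 9 of the 10 lay above 0. In the bin of lowest GC content, the median was 0.17 for all genes and 0.64 for the 5 splicing factor genes in it. With each value taken relative to the median of its GC bin, an alternative added after the data were seen, 13 of the 41 genes were called higher at T48 (6.47% of all genes). The 6 genes gained were cwf2, cwf4, cwf5, prp10, prp11 and prp28, all of the highest bin.

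**Figure D5:**
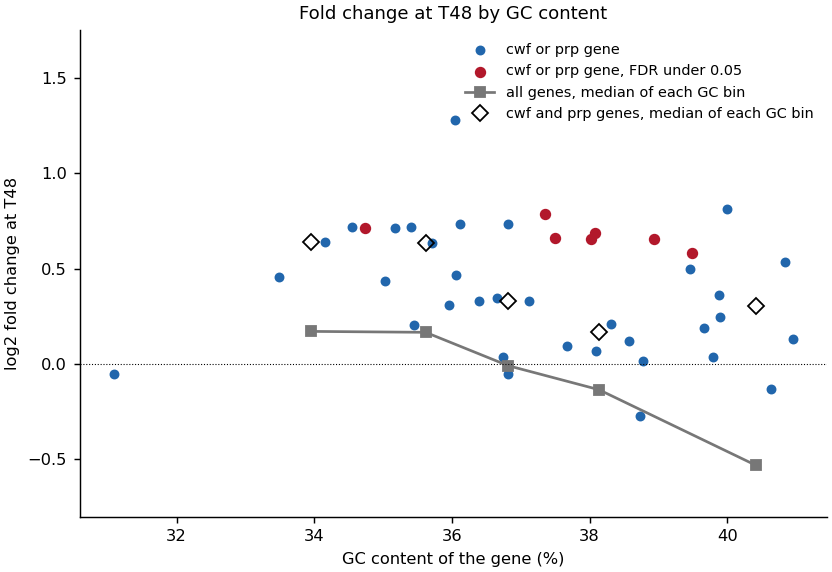
Log2 fold change at T48 (vertical axis) against the GC content of the gene in percent (horizontal axis) for the 41 cwf and prp genes, red for an FDR under 0.05. Grey squares and open diamonds are the medians of all genes and of the cwf and prp genes in each of the 5 GC bins, and in the highest bin they lie at −0.53 and 0.30.

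Many of these genes share sequence with a neighbour, and the sources used here do not state whether reads were counted by strand. In the reference annotation 22 of the 41 genes overlap another coding gene, most of them one on the opposite strand, and 8 do so over more than 50% of their span. The deposited length of prp17 is 8146 bases, and its coding sequence in the reference 1677. There, prp17 shares its whole span of 7802 bases with fab1, a lipid kinase gene on the opposite strand. The fab1 gene was itself called higher at T48 (0.74, FDR 0.022). From T0 to T2w its log2 fold changes were −0.02, 0.19, 0.52, 0.74 and 0.15, beside −0.13, 0.11, 0.37, 0.79 and −0.08 for prp17. Without strand, the reads of prp17 and fab1 cannot be told apart. Of the other called genes, prp2 shares 17.0% of its span with tif1102 (1.23 at T48, FDR 0.12), prp1 5.78% with ofd1 (−0.42), prp31 2.04% with rud3 (0.24) and cwf26 3.33% with its neighbour. The genes cwf11, cwf22, prp22 and cwf5 overlap no coding gene, but noncoding genes cover 38.9% of the span of cwf11, 43.0% of cwf22 and 100% of prp22, and 31 of the 41 genes overlap a noncoding gene. Over the 19 genes that overlap no coding gene, whether or not they overlap a noncoding one, the T48 median was 0.36. Of these, 17 (89.5%) were above 0 and 3 (15.8%) were called higher, against 45.9% and 5.57% of all genes. Among the neighbouring pairs, cwf22 and cwf24 lie side by side on the same strand, with 0.66 and 0.71 at T48, as do prp11 and cwf23, with 0.53 and 0.74.

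The rest of the spliceosome was examined through a list of 59 measured genes, which holds Sm and Lsm proteins, U1 and U2 proteins and further factors. At T48 its median was 0.19 and 38 of 59 (64.4%) were above 0, where 45.9% of all genes were, so the shift was in the same direction as that of the cwf and prp genes and smaller, a difference that was not tested. Called higher were 5 of the 59 (8.47%, against 5.57% of all genes), namely sap62 of the U2 snRNP (0.80, FDR 0.016), prp40 of the U1 snRNP (0.88, FDR 0.024, listed as usp104), lsm4 of the U6 snRNP (0.64, FDR 0.031), cdc5 itself (0.76, FDR 0.039) and the splicing regulator sde2 (0.59, FDR 0.042). Called lower was lsm2, another U6 snRNP gene (−0.93, FDR 0.049), or 1.69% against 8.21% of all genes. At T24 the U1 snRNP gene usp109 was called higher (1.00, FDR 0.00029), and at T2w bpb1, the branch point binding protein gene (0.98, FDR 0.037), each 1.69% of the list, where 1.28% and 1.2% of all genes were called higher. With the F tail 0 of the 59 genes were called at any time. At T0 and T8 edgeR's deposited FDR called 0 of the 59, and 4 and 2 of them (6.78% and 3.39%, against 8.57% and 9.53% of all genes) had an unadjusted p under 0.05. At T24 and T48 12 genes did at each time (20.3%), where 20.5% and 31.1% of all genes did. In this list cdc5, the protein with which the cwf products copurify, had −0.28, 0.17 and −0.06 at T0, T8 and T24, 0.76 at T48 and 0.38 at T2w.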

How the data were processed

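Total RNA was depleted of ribosomal RNA, made into libraries with the ScriptSeq v2 kit and read as 50-base single ends. The authors aligned reads with Bowtie2, which does not split a read over an intron, to assembly ASM294v2, counted them per gene with featureCounts and compared genotypes with edgeR. The sources read here do not state tool versions or strand use. The study scaled aligned data by read number, in a passage on signal along the genome, and does not say whether gene comparisons were scaled in this way. The single deposited table holds the authors' own comparisons, and these columns were used as they stand. They give log2 fold changes, the likelihood ratio (a score), and the deposited p-value and FDR, beside a deposited mean log2 CPM over all libraries and a gene length in bases, another deposited column. The authors had removed genes of very low expression. Of 5008 entries, 1 names no gene (10.3% of the summed mean CPM) and was left out.

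The deposited p-values differ from a chi-square upper tail of that ratio by at most 7.66e-15. The SE of a gene was the size of its log2 fold change divided by the square root of the ratio (ratios under 0.01 took the median SE of the gene's other times, 14 values of these genes). Differences between times were tested by an approximate z statistic with Benjamini-Hochberg adjustment over 5007 genes, for 5 pairs of times and, added after values were seen, T48 against T24. The scripts were tested on simulated data. Products, GC content, introns and overlaps came from RefSeq assembly ASM294v3, which matched 4978 genes. Since this is not the authors' build, no coordinates or sequences are given. Python 3.11.15, numpy 2.4.6, pandas 2.3.3, scipy 1.17.1 and matplotlib 3.10.9 were used.

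The genes and lists were chosen with earlier results of these data known, and the roles were assigned after values were seen. Of 66 other spliceosome genes listed, 2 were dropped because their annotated product was another one, and 59 were measured. None of the 5 listed snRNA genes was measured. The text names the genes called at any time, the 3 highest and 3 lowest at each time and in mean expression, those with an FDR between 0.05 and 0.1, the called genes of the other list, and leo1. Further cwf and prp genes are named by their role, after their values were seen. Alternatives were the FDR threshold, a minimum fold of 1.5, a filter on low expression, the F tail, centring on all genes or on GC content, and shorter gene lists.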

Additional observations from a re-analysis of the deposited data

How the results depend on the processing

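No paired analysis was possible because the deposited table holds comparisons and no values of single libraries. Leaving out a replicate could not be done for the same reason, depth is unknown, and precision is limited by duplicates. At an FDR of 0.01, 1 gene of the 41 (cwf11) was called higher at T48, and 0 were called higher or lower at T24. At 0.1, 12 were called higher at T48 and 1 (prp1) at T2w. With the F tail, 0 were called at any time. Centred on GC content, 13 were called higher at T48. Without the 22 genes that overlap a coding gene, 3 of 19 (15.8%) were called higher at T48, against 5.57% of all genes. Of these 19, 0 were called lower at T24 (3.77% of all genes). Centred and overlap-free counts were chosen after seeing the data. With the 23 genes whose annotated product names a splicing role, 0 were called lower at T24. With a minimum fold of 1.5 prp22 was lost, and a filter on low expression changed no count. The T48 median ranged from 0.36 to 0.54 over these settings. At T24 it lay between −0.04 and 0.20, and its sign was negative when centred on GC content. At T2w it lay between 0.08 (centred on GC content) and 0.24 (without overlapping genes), where 0.17 was the value as reported. At T0 it lay between −0.01 and 0.06, negative only with the filter on low expression. Over all genes, an FDR of 0.01 gave 6, 2, 20, 76 and 14 genes higher and 8, 33, 95, 202 and 54 lower from T0 to T2w, where 0.05 gave 8, 5, 64, 279 and 60 higher and 16, 67, 189, 411 and 115 lower. An FDR of 0.1 gave 12, 9, 143, 472 and 97 higher and 25, 90, 290, 637 and 172 lower. The F tail gave 0, 0, 0, 5 and 3 higher and 2, 3, 15, 55 and 16 lower. Centred on the median of all genes, 384 were higher and 341 lower at T48, and 46 and 149 at T2w. Centred on GC content, 322 and 354 were called at T48 and 27 and 129 at T2w.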

Other observations

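Of the 41 cwf and prp genes, 24 (58.5%) hold at least 1 intron in the reference annotation, where 49.1% of all genes do. At T48 the median log2 fold change over all genes with an intron was 0.02 and over those without one −0.18. Among the cwf and prp genes the order was the other way, with 0.36 for the 24 with an intron and 0.53 for the 17 without, both above the values of all genes. Genes called higher at T48 were found in both sets, 3 with an intron (prp17, cwf22 and prp22) and 4 without (cwf11, prp1, prp2 and prp31). These are 12.5% and 23.5% of their sets, where 5.53% and 5.64% of all genes with and without an intron were called higher. Transcript levels per deposited length also spread widely among these genes, from 11.3 CPM per kilobase for cwf18 to 81.6 for prp2 and 100.1 for prp10. The gene in the middle of the order had 32.2. For some genes the deposited length far exceeds the coding sequence, as for prp17 (8146 against 1677 bases) and cwf14 (3621 against 441). The part of this in the spread was not tested. By mean log2 CPM, the 3 highest of the 41 genes were prp10 (8.47), prp22 (7.59) and prp16 (7.51).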
